A study of Mus musculus with 4 samples.

Results

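The Toll-like receptors chosen for this report were Tlr1, Tlr3, Tlr4, Tlr6, Tlr7 and Tlr9. They were examined together with Cd180 and Ly86, which encode a Toll-like receptor homologue and its accessory protein, Unc93b1, which encodes a chaperone of the endosomal receptors, and Myd88, which encodes the shared signaling adaptor. The 10 genes were taken by symbol from the count table of 55401 genes, and their events were taken from the deposited table of altered splicing, which names 1173 genes. All 10 had counts in every library and passed the filter on low counts. FOB (follicular B) cells, mature B cells that recirculate through the follicles of lymphoid organs, were sorted as B220+CD93-CD23highCD21low from the spleens of C57BL/6 mice aged 7 weeks by the labels. Poly(A) RNA was sequenced from 2 WT libraries, given in the study's methods as Hnrnpf fl/fl without Cre, and from 2 Hnrnpf bKO libraries (Hnrnpf fl/fl with a B cell-specific Cre). The comparison addresses how loss of hnRNP F, an RNA-binding splicing regulator, changes the mRNA of these cells. The deletion is thus directed to B cells, and the Hnrnpf bKO mice also carry a Cre allele that WT mice lack, so the effects of this allele and of the deletion cannot be told apart. Neither the labels nor the methods state whether cells of several mice were pooled, so p-values measure the spread between these libraries, which may be technical.

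Toll-like receptors are membrane proteins whose leucine-rich ectodomains bind microbial molecules and whose cytoplasmic TIR domains recruit adaptors. TLR1 and TLR6 each pair with TLR2 at the cell surface to sense bacterial lipopeptides, and TLR4 with MD-2 senses lipopolysaccharide. TLR3, TLR7 and TLR9 sense double-stranded RNA, single-stranded RNA and unmethylated CpG DNA in endosomes, and they require UNC93B1 to leave the endoplasmic reticulum. RP105, the product of Cd180, lacks a TIR domain, pairs with MD-1, the product of Ly86, and in mice promotes B cell activation. MyD88 carries the signal of every Toll-like receptor named here except TLR3, which uses TRIF.

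Library totals were between 15698567 and 18908963 counts. WT libraries held 5780 and 6634 counts of Hnrnpf, against 1167 and 1194 in the Hnrnpf bKO libraries. Its log2 fold change was −2.32 (edgeR adjusted p = 1.05e-10). The B cell markers Cd79a, Cd79b and Ptprc were abundant in all 4 libraries, while Cd14, Fcgr1 and Mpo of the myeloid list and Clec9a and Xcr1 of the dendritic cell list were at or below 0.11 FPKM. Other genes of these lists were detected, with S100a9 at 6.09 to 23.64 FPKM, S100a8 at 2.64 to 10.68 FPKM, Lyz2 at 2.79 to 6.94 FPKM and Flt3 at 1.39 to 3.91 FPKM over the 4 libraries. All 4 libraries held between 30322 and 33674 counts of Xist and 0 counts of Kdm5d, Uty, Ddx3y and Eif2s3y. The 4 libraries thus had the same X- and Y-linked pattern, and Tlr7 is X-linked.

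Levels between genes were compared as FPKM, counts scaled to the exonic length of each gene and to the total of each library. Unc93b1 was the most abundant of the 10 genes, at 376.92 and 406.56 FPKM in WT and 387.18 and 384.40 FPKM in Hnrnpf bKO. Tlr1 was the most abundant receptor, at 89.77 and 93.82 FPKM in WT and 103.18 and 99.64 FPKM in Hnrnpf bKO, followed by Tlr9 and Cd180. Ly86, Myd88 and Tlr7 lay between 12.04 and 36.91 FPKM. Tlr4 and Tlr6 lay between 3.04 and 4.02 FPKM, and Tlr3 between 0.64 and 1.15 FPKM. Down this order, the ratio of one gene's mean level to the next was 4.02 from Unc93b1 to Tlr1, 1.65 from Tlr1 to Tlr9, 1.19 from Tlr9 to Cd180, 1.45 from Cd180 to Ly86, 1.81 from Ly86 to Myd88, 1.48 from Myd88 to Tlr7, 3.42 from Tlr7 to Tlr4, 1.11 from Tlr4 to Tlr6 and 3.54 from Tlr6 to Tlr3. Neighbours in this order did not overlap over the 4 libraries except for Tlr9 with Cd180 and Tlr4 with Tlr6. Tlr9 was still above Cd180 in every library, whereas the order of Tlr4 and Tlr6 changed between libraries and they are not separated here. In poly(A) RNA from sorted cells, fewer cells with a transcript and less of it per cell cannot be told apart.

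**Figure D1:**
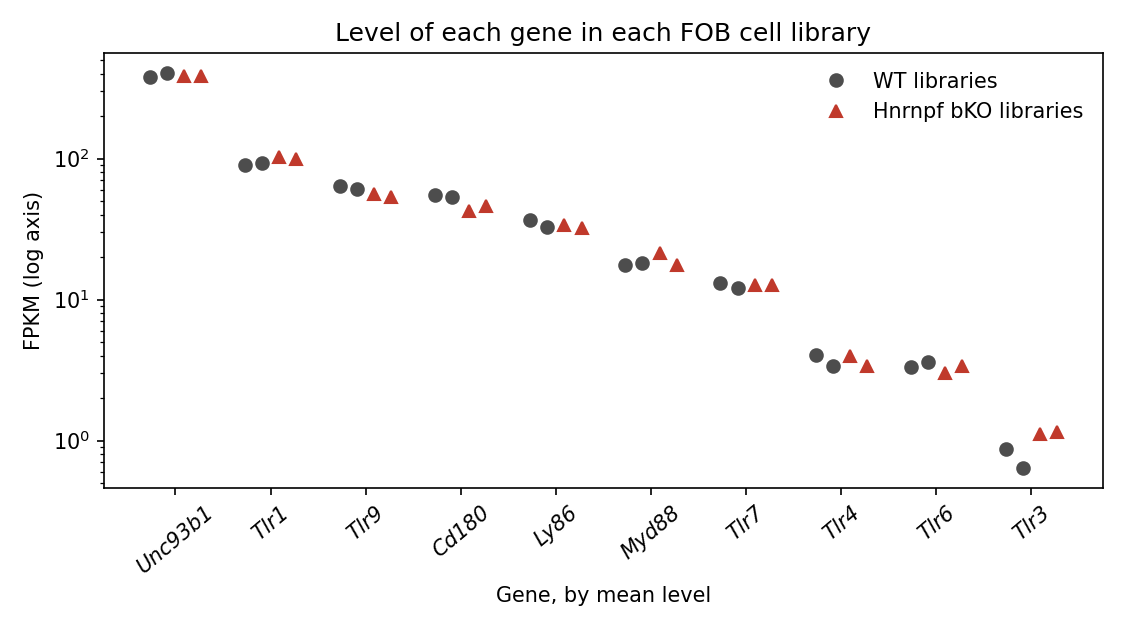
Level of each of the 10 genes in FPKM (log axis) in the 2 WT libraries (grey circles) and the 2 Hnrnpf bKO libraries (red triangles), with genes ordered by mean level. Unc93b1 is at 376.92 to 406.56 FPKM and Tlr3 at 0.64 to 1.15 FPKM, and neighbouring genes overlap over the 4 libraries only for Tlr9 with Cd180 and Tlr4 with Tlr6.

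Tlr1 and Tlr6 lie close together on chromosome 5 of GRCm38, at chr5:64924679-64933563 and chr5:64952031-64960097, both on the minus strand. They were the only pair of the 10 genes whose longest coding transcripts aligned at 80% identity or more, with 88.8% identity over 1328 bases. A read that falls inside an identical stretch fits both genes, so the longest such stretch is shown. It is 229 bases long, lies in the coding part of exon 4 of Tlr1 (chr5:64925537-64925765) and in Tlr6 at chr5:64953828-64954056, and is written in the direction of the mRNA, with no base singled out by capitals.
Tlr1 and Tlr6: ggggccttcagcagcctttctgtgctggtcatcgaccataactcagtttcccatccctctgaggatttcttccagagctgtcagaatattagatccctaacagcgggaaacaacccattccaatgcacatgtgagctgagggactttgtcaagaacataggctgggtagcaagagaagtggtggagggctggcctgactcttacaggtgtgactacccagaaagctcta
Stretches of 208 and 119 identical bases lie on either side of it. Of all windows of 150 bases, the read length, 139 of 2876 in the Tlr1 transcript (4.83%) and 139 of 3528 in the Tlr6 transcript (3.94%) were identical between the genes. These shares are for single reads. The libraries were sequenced paired-end, and a mate outside such a stretch may tell the genes apart. The level of Tlr1 was 27.1 and 26.1 times that of Tlr6 in WT and 33.9 and 29.3 times in Hnrnpf bKO, and how the authors' counting treated reads that fit both genes is not given in the sources used here. Such reads may have been assigned to either gene or left out, so the values of both genes are uncertain to that extent. This was not tested.

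Of the 10 genes, Cd180 alone passed the threshold on the adjusted p (0.05 or less), and it was lower in Hnrnpf bKO. Over all 14123 genes tested, 6.97% passed this threshold, 4.15% higher and 2.83% lower in Hnrnpf bKO, so 1 of 10 lay close to the background. None of the 10 also reached a 2-fold change, which 0.899% of all genes did. The Hnrnpf bKO and WT libraries did not overlap for 4 genes, namely Cd180, Tlr9, Tlr1 and Tlr3, against 50.1% of all genes. These were also the 4 genes with an unadjusted p under 0.05. Log2 fold changes were positive for 4 genes and negative for 6, and their median was −0.01 against −0.00 for all genes tested.

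**Figure D2:**
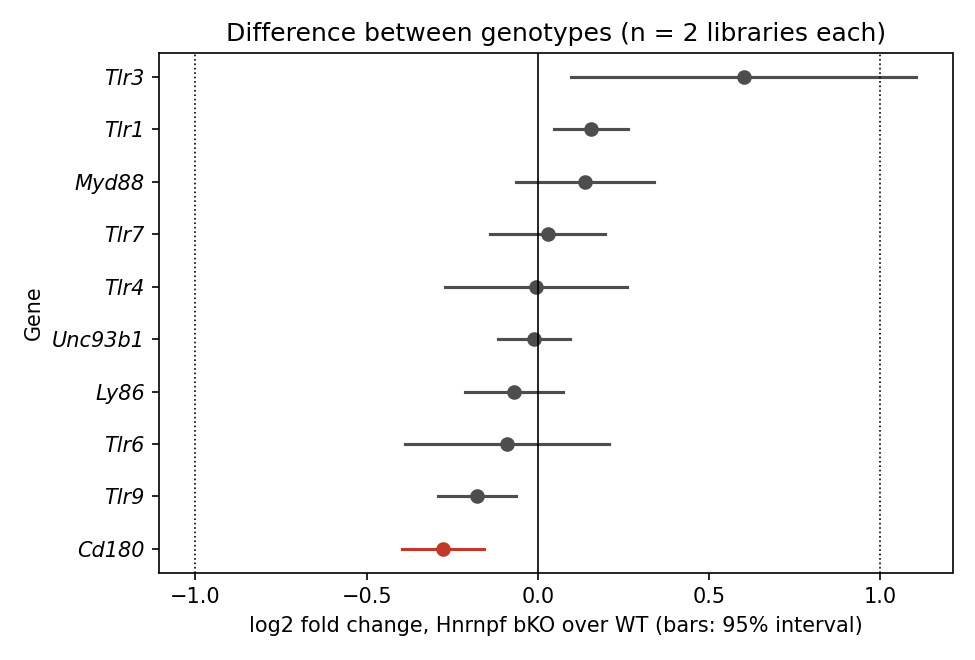
Log2 fold change of each gene in Hnrnpf bKO over WT FOB cells (points) with its 95% interval from edgeR (bars), with 2 libraries per genotype and dotted lines at a 2-fold change. Cd180 (red, −0.28) is the only gene that passed an adjusted p of 0.05, and the interval of Tlr3 alone reaches beyond a 2-fold change.

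Among the surface receptors, Cd180 (ENSMUSG00000021624, chr13:102693558-102739629, plus strand) was counted 4042 and 4576 times in WT libraries and 3031 and 3743 times in Hnrnpf bKO libraries. Its level was 54.79 and 53.67 FPKM in WT and 42.82 and 45.93 FPKM in Hnrnpf bKO. Both Hnrnpf bKO libraries were below both WT libraries, although the Hnrnpf bKO libraries were further apart than the WT libraries. Cd180 fell by 0.28 on the log2 scale (SE 0.05, 95% interval −0.40 to −0.16, edgeR adjusted p = 0.00894), to 82.5% of the WT level. Among the genes called at this threshold, 75.8% had a log2 fold change at least as far from 0, the median distance being 0.41. Without Hnrnpf bKO replicate 1 the log2 fold change was −0.22 and edgeR's adjusted p was 0.0667, and with limma on log2(FPKM + 0.1) they were −0.29 and 0.103. Mast4, on the opposite strand, shares 182 exonic bases with Cd180 (4.04% of its exonic length), and its log2 fold change was −0.05 (edgeR adjusted p = 0.748).

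Ly86 (chr13:37345208-37419036, plus strand), whose product holds RP105 at the surface, had 36.91 and 32.78 FPKM in WT and 33.81 and 32.07 FPKM in Hnrnpf bKO, and the genotypes overlapped. Its log2 fold change was −0.07 (95% interval −0.21 to 0.07, edgeR adjusted p = 0.620). The ratio of Cd180 to Ly86 in FPKM was 1.48 and 1.64 in WT against 1.27 and 1.43 in Hnrnpf bKO, so both Hnrnpf bKO libraries were below both WT libraries, by less than the distance between the libraries of either genotype.

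Tlr1, the TLR2 partner for triacylated lipopeptides, was counted 4914 and 5936 times in WT libraries and 5420 and 6026 times in Hnrnpf bKO libraries. In FPKM both Hnrnpf bKO libraries were above both WT libraries. The log2 fold change was 0.15 (SE 0.05, 95% interval 0.05 to 0.26), with an unadjusted p of 0.00827 and an adjusted p of 0.0858 from edgeR, which missed the threshold. Tlr6, the TLR2 partner for diacylated lipopeptides, was counted 202 and 254 times in WT libraries and 178 and 229 times in Hnrnpf bKO libraries, and the genotypes overlapped. Its log2 fold change was −0.09 (95% interval −0.39 to 0.21, edgeR adjusted p = 0.771). Tlr2, the common partner, was at 2.96 and 3.98 FPKM in WT and 4.35 and 4.44 FPKM in Hnrnpf bKO, with a log2 fold change of 0.35 (edgeR adjusted p = 0.236). The level of Tlr1 was 30.3 and 23.6 times that of Tlr2 in WT and 23.7 and 22.4 times in Hnrnpf bKO, and this ratio did not separate the genotypes.

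Tlr4 (chr4:66827584-66930284, plus strand), the lipopolysaccharide receptor, was counted 365 and 357 times in WT libraries and 347 and 337 times in Hnrnpf bKO libraries. In both genotypes the first library was the higher in FPKM, at 4.02 against 3.40 in WT and 3.98 against 3.36 in Hnrnpf bKO. The log2 fold change was −0.00 with a 95% interval of −0.27 to 0.26 (edgeR adjusted p = 0.990). Ly96, which encodes MD-2, was at 1.43 to 1.92 FPKM over the 4 libraries, and the co-receptor Cd14 was at 0.11 FPKM or below.

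Among the endosomal receptors, Tlr9 (chr9:106222598-106226883, plus strand) was counted 3628 and 4029 times in WT libraries and 3058 and 3378 times in Hnrnpf bKO libraries. Its level was 63.76 and 61.26 FPKM in WT and 56.01 and 53.74 FPKM in Hnrnpf bKO, and both Hnrnpf bKO libraries were below both WT libraries. The log2 fold change was −0.18 (SE 0.05, 95% interval −0.29 to −0.06), with an unadjusted p of 0.00534 and an adjusted p of 0.0661 from edgeR. Without the filter on low counts edgeR's adjusted p was 0.0344. It was 0.145 with a replicate block in edgeR, 0.156 with DESeq2 and 0.159 with limma on log2(FPKM + 0.1). Tlr7 (chrX:167304929-167330558, minus strand), the other nucleic acid receptor known for B cell responses, was at 13.07 and 12.04 FPKM in WT and 12.67 and 12.71 FPKM in Hnrnpf bKO. Both Hnrnpf bKO libraries lay between the WT libraries, and the log2 fold change was 0.03 (95% interval −0.14 to 0.20, edgeR adjusted p = 0.884). The ratio of Tlr9 to Tlr7 in FPKM was 4.88 and 5.09 in WT against 4.42 and 4.23 in Hnrnpf bKO, lower in both Hnrnpf bKO libraries.

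Tlr3 (chr8:45395665-45411080, minus strand), the receptor for double-stranded RNA, was counted least, 74 and 63 times in WT libraries and 91 and 108 times in Hnrnpf bKO libraries. Both Hnrnpf bKO libraries were above both WT libraries. Its log2 fold change was 0.60 (SE 0.23), with a wide 95% interval of 0.10 to 1.11, an unadjusted p of 0.0229 and an adjusted p of 0.158 from edgeR. This was the largest fitted change of the 10 genes and also the least precise, and at this depth neither a small change nor one of 2-fold lay outside the interval. Gm45542, on the opposite strand, shares 381 exonic bases with Tlr3 and had between 0 and 1 counts per library.

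Unc93b1 (chr19:3935186-3949340, plus strand), the chaperone of the endosomal receptors, was counted 18691 and 23301 times in WT libraries and 18423 and 21059 times in Hnrnpf bKO libraries. Both Hnrnpf bKO libraries lay between the WT libraries in FPKM. The log2 fold change was −0.01 with the narrowest interval of the 10 genes, −0.12 to 0.09 (edgeR adjusted p = 0.935). Myd88 (chr9:119335934-119341411, minus strand) was counted 737 and 889 times in WT libraries and 869 and 821 times in Hnrnpf bKO libraries. The second Hnrnpf bKO library lay between the WT libraries in FPKM and the first lay above them, and the log2 fold change was 0.14 (95% interval −0.06 to 0.34, edgeR adjusted p = 0.452). Acaa1a, on the opposite strand, shares 290 exonic bases with Myd88 (11.3% of its exonic length) and rose by 0.20 on the log2 scale (edgeR adjusted p = 0.0426). The strand setting of the counting is not given in the sources used here, so reads of Acaa1a in the shared bases cannot be told apart from those of Myd88.

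Tlr1 was the only one of the 10 genes with an event in the deposited table of altered splicing. The table gives for each event the difference in inclusion level, the share of transcripts that retain the sequence, as the mean of WT minus that of Hnrnpf bKO. Both Tlr1 events were of the exon skipping (SE) type and both were less included in Hnrnpf bKO, by 0.272 (FDR = 9.22e-09) and 0.176 (FDR = 8.80e-07). Of the 1017 SE events in the table, 657 were less included in Hnrnpf bKO, 32.2% differed by at least as much as the larger Tlr1 event and 58.8% by at least as much as the smaller. Among the 9875 genes that averaged 100 counts or more, 10.6% had an event in the table, and of the 9 genes considered here at that depth 1 did. No values per library and no positions were used for these events, so their spread between replicates was not assessed and the skipped exons could not be assigned. Both events belong to 1 gene and may share reads, so they are not independent.

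The annotation of Tlr1 shows what skipping can involve. Tlr1-202 has 4 exons, of 36, 300, 69 and 2620 bases, and Tlr1-201 has 3, of 95, 69 and 2619 bases. All 2385 coding bases of either transcript lie in the last exon, and the internal exons, which are the 300-base exon 2 of Tlr1-202 (chr5:64932801-64933100) and the 69-base exon shared by both transcripts (chr5:64930155-64930223), are 5′ UTR throughout. An internal exon of these 2 transcripts thus holds no coding sequence. They are the coding ones of 3 annotated Tlr1 transcripts, and the exons of the other were not examined. HnRNP F is known to bind runs of G in RNA, and the RNA strand of both exons was searched for runs of at least 3 G (GGG or longer). The 300-base exon held 3 runs and the 69-base exon held 0. Introns were not searched, although the study reports that hnRNP F binds G runs in introns of Cd40, close to 5′ splice sites. Of 90 internal exons of 300 bases in the annotation, 95.6% held at least 1 run and 63.3% held 3 or more, while 48.8% of 1233 internal exons of 69 bases held at least 1. The runs in the 300-base exon are shown with their surroundings, 5′ to 3′ on the minus strand of GRCm38, with the G run in capitals. They start at bases 113, 240 and 255 of the exon, and the windows of runs 2 and 3 (chr5:64932845-64932874 and chr5:64932830-64932859) overlap, the first being chr5:64932971-64933000.
Run 1: accatggcatttGGGGGtggtccttttcga
Run 2: cggatgctgcgctGGGattctgctctcagg
Run 3: gattctgctctcaGGGtcatcgcaggatgt
These matches describe the sequence and are not binding sites, and binding of hnRNP F to Tlr1 was not measured in these data.

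**Figure D3:**
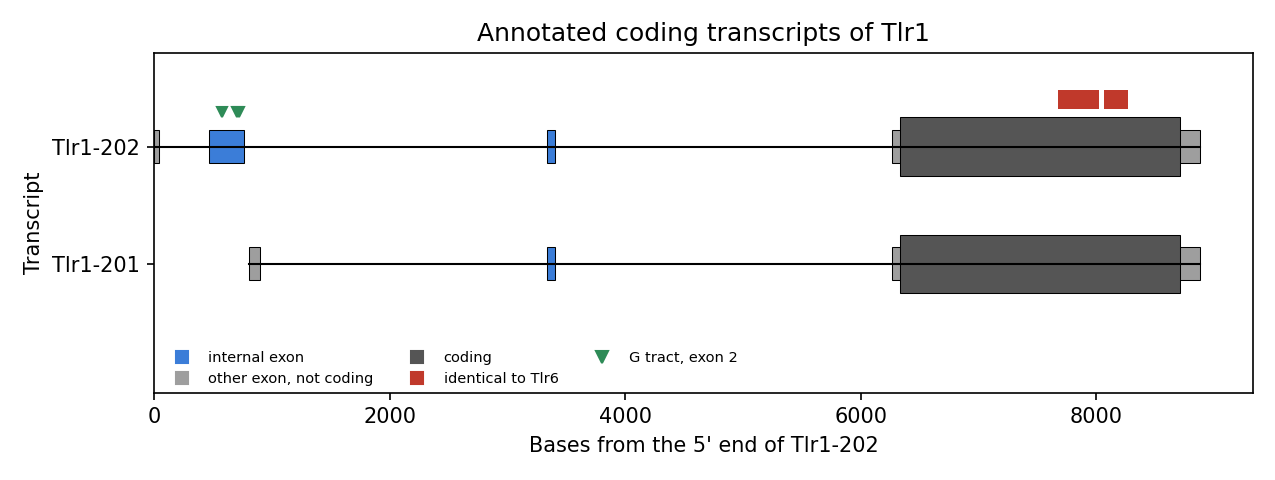
Annotated coding transcripts of Tlr1, in bases from the 5′ end of Tlr1-202, with internal exons in blue, other noncoding exon sequence in light grey, coding sequence in dark grey, G runs of exon 2 as green triangles and the 3 stretches of at least 100 bases identical to Tlr6 in red, of which the longest and the shortest nearly adjoin and appear as 1 block. The internal exons lie outside the coding sequence, and the identical stretches lie within it.

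The rest of the pathway was examined in 5 lists of 72 genes, of which 71 were matched by symbol (Tasl was not analysed here) and 61 passed the filter on low counts. At the same threshold on the adjusted p, 5 were higher and 5 were lower in Hnrnpf bKO (16.4% of those tested, against 6.97% of all genes, of which 4.15% were higher and 2.83% lower), with none at 2-fold (0.899% of all genes), and the median log2 fold change was −0.01. Leaving 1 library out gave 2 higher and 6 lower genes without WT replicate 1, 6 and 2 without WT replicate 2, 2 and 4 without Hnrnpf bKO replicate 1, and 3 and 1 without Hnrnpf bKO replicate 2, and of the 10 called genes only Ikbke and Cd69 passed in all 4 of these fits. None of the 10 passed with limma on either FPKM scale. Of the other receptors and co-receptors, 4 of 10 were tested. Cd36, a lipid scavenger receptor that assists TLR2 with TLR6, fell by 0.47 on the log2 scale (edgeR adjusted p = 0.0265), from 7.17 and 8.99 FPKM to 5.94 and 5.67 FPKM, and it is also a marker of marginal zone B cells. Tlr12 was at 2.08 and 3.10 FPKM in WT and 3.89 and 3.60 FPKM in Hnrnpf bKO (edgeR adjusted p = 0.106). Tlr5 had 0 counts in all 4 libraries, and Tlr8, Tlr11 and Tlr13 were at 0.05 FPKM or below.

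Of the 14 genes of folding, trafficking and processing, 1 rose, 1 fell and 12 did not pass. Cnpy3, a chaperone of several Toll-like receptors that acts with gp96, rose by 0.23 on the log2 scale (edgeR adjusted p = 0.0236). Pld4, an endolysosomal exonuclease that degrades nucleic acid ligands, fell by 0.31 (edgeR adjusted p = 0.0238). Pld4 was among the 3 most abundant genes of this list, and the other two, the protease gene Ctss and the gp96 gene Hsp90b1, had log2 fold changes of −0.02 and −0.15 (edgeR adjusted p = 0.842 and 0.127).

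Of 21 adaptors and proximal kinases, 2 rose, 2 fell and 17 did not pass. Ikbke, an IKK-related kinase, rose from 4.92 and 4.80 FPKM to 7.19 and 7.17 FPKM, by 0.57 on the log2 scale (edgeR adjusted p = 0.000522). Irf5, a transcription factor activated downstream of MyD88, rose by 0.19 (edgeR adjusted p = 0.0333). Tirap, the adaptor that bridges MyD88 to the surface receptors, fell from 6.01 and 5.21 FPKM to 3.97 and 3.85 FPKM, by 0.51 (edgeR adjusted p = 0.0122). Pik3ap1, which encodes the PI3K adaptor BCAP, fell by 0.22 (edgeR adjusted p = 0.0246). Irf3, the next most abundant of this list, had a log2 fold change of −0.08 (edgeR adjusted p = 0.431). Tirap was the only called gene of the 5 lists that also had an altered splicing event, an alternative 5′ splice site (A5SS) with an inclusion difference of −0.23 (FDR = 0.0363). Other events in these lists were 2 SE events of Traf3, at 0.159 and 0.346, an A5SS event of Map3k7 at 0.16, retained introns of Irf3, Hps1 and Sigirr at −0.105, −0.156 and −0.156, and mutually exclusive exons of Nlrc5 at 0.202. Retained introns of these 3 genes were more included in Hnrnpf bKO. The share of all retained introns with that direction was not examined here, so no pattern of the pathway is drawn from them.

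Of 11 negative regulators, Inpp5d, which encodes the phosphatase SHIP1, fell by 0.31 on the log2 scale (edgeR adjusted p = 0.0134), and the other 10, among them the abundant Dok3 and Lyn, did not pass. Of 15 transcripts that Toll-like receptor stimulation induces in B cells, 11 were tested and 2 rose. Cd69, an early activation marker, rose from 7.88 and 7.89 FPKM to 12.10 and 10.22 FPKM, by 0.51 (edgeR adjusted p = 0.00294), and Myc, a growth regulator, rose by 0.32 (edgeR adjusted p = 0.0146). Nfkbia, Irf4 and Nfkbie, other abundant genes of this list, had log2 fold changes of 0.12, −0.11 and −0.11 with edgeR adjusted p from 0.207 to 0.350. Il6, Il10, Ccl3 and Ccl4 were too low to be tested. These cells were not stimulated in the comparison, as far as the labels state.

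**Figure D4:**
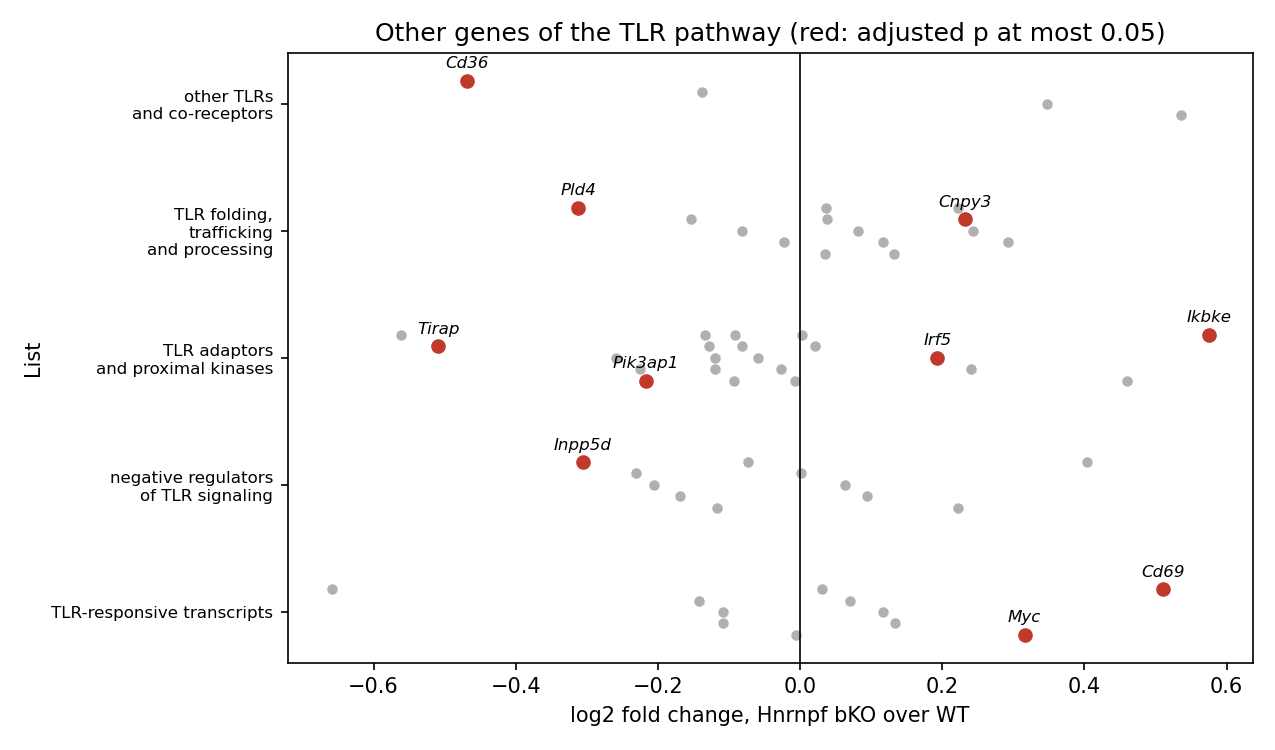
Log2 fold change in Hnrnpf bKO over WT FOB cells of the 61 tested genes in the 5 lists of the Toll-like receptor pathway, 1 point per gene, with vertical offsets within a list for legibility. The 10 red points (adjusted p of 0.05 or less) fall 5 on either side of 0 and none reaches a 2-fold change.

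Some markers of B cell subsets and of other cells also passed the threshold on the adjusted p. Of all genes tested, 6.97% did, 4.15% higher and 2.83% lower in Hnrnpf bKO. Of the B cell markers, Ms4a1 and Pax5 fell by 0.29 and 0.20 on the log2 scale (edgeR adjusted p = 0.00240 and 0.0261). Cd22, Ptprc, Cd79a and Cd79b did not pass, with log2 fold changes of −0.12, −0.12, 0.10 and 0.11 (edgeR adjusted p from 0.135 to 0.225). Of the follicular markers, Fcer2a and Ighd rose by 0.22 and 0.28 and Cr2 fell by 0.47 (edgeR adjusted p from 0.00140 to 0.0180). Of 7 marginal zone markers Cd36, Hes1, Dtx1 and S1pr3 fell, Cd1d1 rose and 2 did not pass, and their summed level was 486 to 502 CPM in WT and 434 to 445 CPM in Hnrnpf bKO. The number of marginal zone markers called lower was 2 with DESeq2 and 1 with a replicate block in edgeR. Cd93 of the transitional markers rose by 0.85, from 1.26 and 1.76 FPKM to 2.49 and 2.93 FPKM in cells sorted as CD93-, whereas Cd24a and Vpreb3 did not pass and Rag1 and Rag2 were at or near 0. The calls of Pax5, Hes1, Dtx1, S1pr3, Cd1d1, Fcer2a, Ighd and Cd36 were lost without 1 or more of the libraries.

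Of 10 myeloid markers, S100a8 and S100a9 rose by 1.53 and 1.34 on the log2 scale (the call of S100a9 was lost without Hnrnpf bKO replicate 2), 5 did not pass and Mpo, Fcgr1 and Cd14 were too low to be tested, with summed levels of 15.96 to 22.92 CPM in WT and 25.8 to 36.3 CPM in Hnrnpf bKO. Of 6 dendritic cell markers Flt3 rose by 1.12, 2 did not pass and Clec10a, Clec9a and Xcr1 were too low to be tested, with summed levels of 11.0 to 13.7 CPM in WT and 20.7 to 28.3 CPM in Hnrnpf bKO. None of 7 T and NK cell markers passed (23.2 to 33.7 CPM in WT and 18.95 to 29.14 CPM in Hnrnpf bKO), and none of 4 plasma cell markers did. Toll-like receptors are expressed by marginal zone, myeloid and dendritic cells too. For scale, the 10 genes summed to 2184 to 2239 CPM in WT and 2163 to 2179 CPM in Hnrnpf bKO, and Tlr3 alone had a mean of 3.92 CPM in WT. The part of other cell types in the values of Cd180, Tlr1, Tlr3 and Tlr9 was not tested.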

How the data were processed

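Per the study's methods and the submitters' processing notes, the authors trimmed reads with Cutadapt 1.9.1, aligned them to GRCm38 with Hisat2 2.0.1 and counted them per gene with HTSeq 0.6.1. The deposited counts are whole numbers without normalization. For the deposited FPKM, the authors scaled the counts by exonic gene length and by library total. The deposited splicing table, made by the authors with rMATS, gives an inclusion level difference, taken here as a signed score, and an FDR, an adjusted p-value, for altered events only, and it holds the authors' own comparison.

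Counts were compared with edgeR 4.0.16 in R 4.3.3 (TMM, filterByExpr, quasi-likelihood test, Benjamini-Hochberg adjustment over 14123 genes). Called genes have an adjusted p of at most 0.05. Library factors ranged from 0.992 to 1.01 and the biological coefficient of variation was 5.90%. The smallest two-sided p of an exact permutation test of 2 against 2 libraries is 0.333. CPM values are counts scaled to the TMM-adjusted library size. The test was also run on simulated counts drawn with the fitted means and dispersions, with 200 genes changed by larger folds than Cd180. It therefore cannot check those dispersions or a change as small as that of Cd180. Alternatives were DESeq2 1.42.0, limma-trend (limma 3.58.1) on log2(FPKM + 0.1) or log2(FPKM + 1) over genes whose mean FPKM was 0.5 or more, RLE size factors, other filters and thresholds, a replicate block and each library left out. Gene models and sequences came from the GENCODE annotation of GRCm38, whose positions and exonic sizes matched those of the files for all 10 genes, and transcripts were aligned with blastn 2.17.0. Named genes are the 10 genes, Hnrnpf, overlapping genes, called genes of each list and up to 3 of its most abundant, and further genes named for their absence, their partnership or their splicing events were chosen after their values were seen. The genes and lists were chosen with earlier results of these data known. Some results on markers are not reported here.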

Additional observations from a re-analysis of the deposited data

How the results depend on the processing

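The number of the 10 genes called was 1 with RLE size factors, DESeq2, at least 10 counts in every library, a replicate block or an adjusted p of at most 0.01, 2 without a filter on low counts, 3 at an adjusted p of at most 0.1, 0 with either limma setting and 0 to 1 with each library left out. None reached a 2-fold change under any of these. Cd180 was lower throughout, at −0.29 and −0.28 with limma on log2(FPKM + 0.1) and log2(FPKM + 1) (adjusted p = 0.103 for each), and at −0.33 to −0.22 (adjusted p 0.00610 to 0.0667) with each library left out, the call being lost without Hnrnpf bKO replicate 1. Tlr9 passed without the filter on low counts, at −0.18 (adjusted p = 0.0344). With each library left out, log2 fold changes ranged from −0.130 to 0.121 for Tlr4 (0.111 without Hnrnpf bKO replicate 2), from −0.0379 to 0.0910 for Tlr7, from −0.160 to 0.0208 for Ly86, from −0.0614 to 0.0380 for Unc93b1 and from −0.00267 to 0.272 for Myd88, so the direction of these 5 genes depended on the libraries used. Of the 61 pathway genes, 8 were higher and 8 lower without the filter, 0 and 0 with either limma setting, and 2 to 6 higher and 1 to 6 lower with each library left out. The causes were not tested. Limma called 45 and 41 genes in all, DESeq2 641, and edgeR 985.

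Same-numbered libraries did not deviate together across genes (r = −0.07). This correlation gave no sign of pairing by replicate number, but it cannot exclude a pairing that affects only some genes. With a replicate block, edgeR called 612 genes in all, Cd180 kept its call (adjusted p = 0.0347), and 3 pathway genes were higher and 2 lower. The 2 libraries per genotype limit precision most for Tlr3, with 63 to 108 counts per library.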
